A study of Mus musculus with 4 samples.

Results

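The genes described here are 10 genes through which dying germ cells are recognised and engulfed. They were taken as the rows of the deposited expression table whose gene name is *Axl*, *Mertk*, *Tyro3*, *Gas6*, *Pros1*, *Mfge8*, *Scarb1*, *Adgrb1*, *Elmo1* or *Dock1*, which gave 10 of the 55820 loci in the table. Only 5 of them encode receptors, and the others encode bridging ligands and cytoplasmic adaptors. RNA sequencing covered whole testes of male C57BL/6J mice at postnatal day 10 (P10), with 2 libraries from control mice and 2 from Mps1sKO mice. In Mps1sKO mice, *Stra8*-Cre, which is active in germ cells from early spermatogonia to preleptotene spermatocytes, deletes floxed exons of *Mps1*, the kinase gene named *Ttk* in the table. The labels call the other genotype only control, and whether those mice carried floxed alleles or Cre is not given in the sources used here. The design text calls the 2 libraries of each genotype biological replicates, and whether each came from 1 mouse is not given. The p-values thus measure the spread between these libraries, which the fit pools in part over loci.

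Many germ cells die during the first wave of spermatogenesis, and Sertoli cells, the somatic nurse cells of the seminiferous tubule, engulf them. A dying cell exposes phosphatidylserine on its surface. The receptors TYRO3, AXL and MERTK, together called TAM receptors, bind it through the bridging ligands GAS6 and protein S (*Pros1*), and MFG-E8 links it to integrins. SR-BI (*Scarb1*) and BAI1 (*Adgrb1*) bind phosphatidylserine directly, and ELMO1 with DOCK1 activates the GTPase RAC1, which reshapes actin around the corpse. Macrophages in the interstitium use many of the same genes. The RNA came from all cells of the testis, so no value below belongs to 1 cell type, and fewer cells of a type and less RNA per cell cannot be told apart.

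Total counts were between 23311689 and 28607746 per library. The targeted gene *Ttk* reached 27.9 and 32.6 CPM (the count scaled to library size with edgeR's TMM factors) in control testes, against 13.0 and 12.2 in Mps1sKO testes. On the log2 scale it fell by 1.26 (SE 0.129, with an adjusted p of 0.0461 in the quasi-likelihood test of edgeR), and both Mps1sKO libraries lay below both control libraries, as their labels say. The counts cover the whole gene, exons that Cre does not remove included. The call was lost under 3 of 12 alternative settings, with adjusted p of 0.0573, 0.0745 and 0.224. Fold changes are Mps1sKO over control, and p was adjusted over all 20561 tested loci by the Benjamini-Hochberg method. All 10 genes passed the filter on low counts.

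As described below, the 3 TAM receptor genes were higher in both Mps1sKO libraries than in both control libraries, by 1.17-fold to 1.31-fold, and *Adgrb1* was lower in both, at 62.1% of control. With edgeR, DESeq2 and limma-voom alike, 0 of the 10 genes had an adjusted p below 0.05, where 0.0292% of all tested loci passed with edgeR. At an unadjusted p below 0.05, edgeR gave 4 of the 10, 3 higher and 1 lower, against 9.30% of all tested loci (3.92% higher and 5.37% lower). DESeq2 gave 3, against 3.2% of the 35262 loci it was run on without the filter on low counts. Its share is thus not over the same loci as that of edgeR. With limma-voom 4 were below 0.05, against 9.35% of the 20561 loci. Without control replicate 2, the only one of the 10 below 0.05 was *Adgrb1*. For 5 genes the libraries of the genotypes did not overlap, which held for 41.4% of all tested loci. These were 4 genes above control (20.3% of all tested loci) and 1 below it (21.1%). By the fitted value alone, 8 of the 10 were higher, against 50.1% of all tested loci, and the median of the 10 was 0.15 on the log2 scale, against 0.000 over all tested loci.

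**Figure D1:**
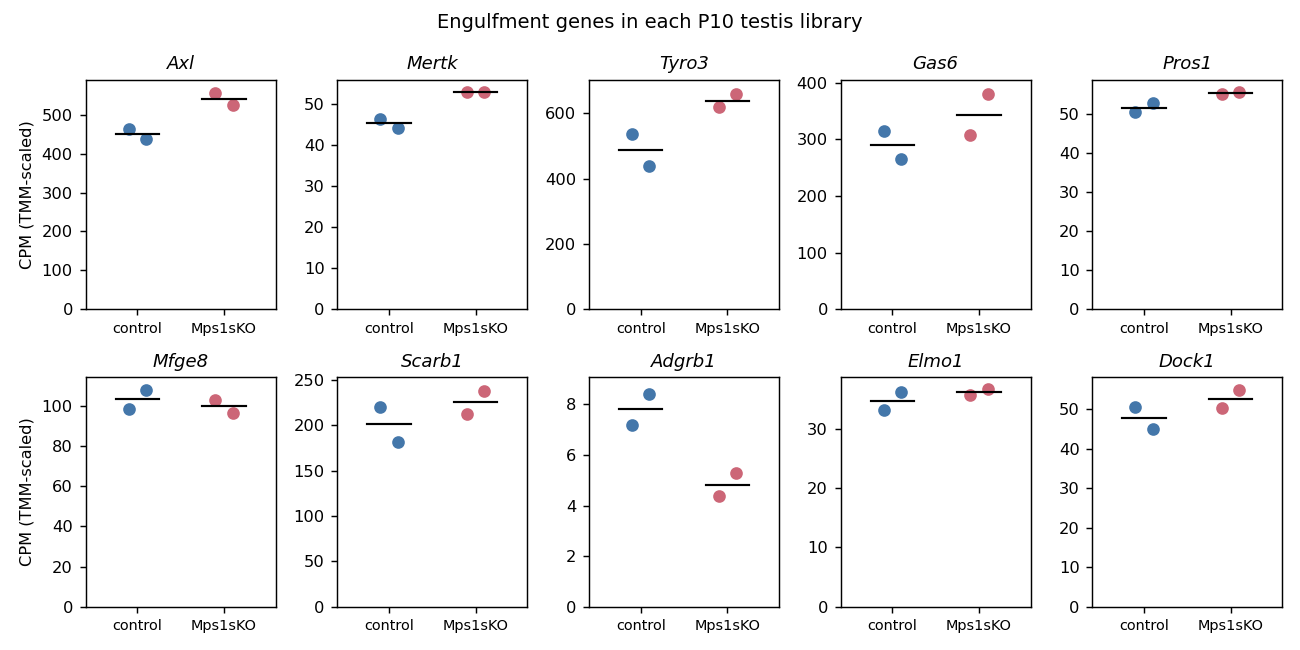
Each panel plots 1 gene, with normalized counts (CPM, TMM-scaled, axes from 0) on the y axis and genotype on the x axis. Points are the 2 libraries of a group and lines their mean. *Axl*, *Mertk*, *Tyro3* and *Pros1* lay higher in both Mps1sKO libraries, *Adgrb1* lay lower in both, and the groups overlapped for the other genes.

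The TAM receptor genes differed widely in level. Levels were compared between genes on the scale of FPKM, which the authors divided by gene length. *Axl* had 91.3 and 86.7 FPKM in the control libraries, and *Tyro3* had 85.7 and 70.0. *Mertk* was the minor receptor, with 10.6 and 10.1 FPKM. *Axl* made up 50.3% ± 2.33 (SD, n = 2) of the summed FPKM of the 3 receptors in control testes, *Tyro3* 43.8% ± 2.63 and *Mertk* 5.87% ± 0.294. In the Mps1sKO libraries *Axl* made up 49.7% and 46.9%, *Tyro3* 44.8% and 47.7%, and *Mertk* 5.47% in each. The shares of *Axl* and *Tyro3* overlapped between the genotypes, and that of *Mertk* was lower in both Mps1sKO libraries by less than 1 percentage point. The sum of the 3 was 177 ± 14.7 FPKM in control and 222 ± 0.505 in Mps1sKO testes (SD, n = 2 each).

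*Tyro3* (ENSMUSG00000027298), on chromosome 2 from 119797733 to 119818104, encodes a receptor tyrosine kinase that is abundant in Sertoli cells and the nervous system. In control testes it had 536 and 437 CPM, and in Mps1sKO testes 619 and 658 CPM. The control libraries lay apart from each other, and even the higher of them stayed below both Mps1sKO libraries. This gave a log2 fold change of 0.39 (standard error 0.114, 95% interval 0.13 to 0.66), with an unadjusted p of 0.00934 and an adjusted p of 0.494 from edgeR. Without the filter on low counts, where edgeR called 390 loci in place of 6, the adjusted p of *Tyro3* was 0.00841. Without control replicate 2, its log2 fold change was 0.25 (unadjusted p = 0.118 from edgeR).

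*Axl* (ENSMUSG00000002602) lies on chromosome 7 from 25757273 to 25788705 and encodes the TAM receptor that binds GAS6 but not protein S. It had 464 and 439 CPM in control and 557 and 525 CPM in Mps1sKO libraries. The 2 libraries of each genotype were closer to each other than to those of the other genotype. In log2 terms the difference was 0.26 (standard error 0.0873, 95% interval 0.06 to 0.46, unadjusted p = 0.0181, adjusted p = 0.497 from edgeR). It was 0.22 without control replicate 2 and 0.30 without control replicate 1, with unadjusted p of 0.166 and 0.0669.

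*Mertk* (ENSMUSG00000014361), on chromosome 2 from 128698956 to 128802894, encodes the TAM receptor best known from macrophages and the retinal pigment epithelium. It had 46.5 and 44.2 CPM in control and 52.9 CPM in each Mps1sKO library. These values did not overlap, and the log2 fold change was 0.22 (standard error 0.0911, 95% interval 0.01 to 0.43, unadjusted p = 0.0425, adjusted p = 0.528 from edgeR). DESeq2 gave it an unadjusted p of 0.0909. From edgeR the unadjusted p of *Mertk* was 0.0606 with library size only, 0.0593 without the filter and 0.128 with a block for the replicate number. It was below 0.05 in 4 of the 12 alternative settings.

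The stretches before the transcription starts of the receptor genes show how these starts differ in sequence. For *Axl* and *Mertk* they are the 250 bases before the start in RefSeq on GRCm38.p6. For *Tyro3* they are the last 98 of these bases, since others of these bases lie in exons annotated in GENCODE M21. The RefSeq start of *Tyro3* lies inside the gene as annotated in GENCODE M21, which begins at 119797733. The stretch shown for *Tyro3* is thus within that gene and not upstream of it. Capitals mark GC boxes, the letters GGGCGG or their reverse complement CCGCCC, which is the core of sites for SP1-type factors.
Axl chr7:25788734-25788983, minus strand: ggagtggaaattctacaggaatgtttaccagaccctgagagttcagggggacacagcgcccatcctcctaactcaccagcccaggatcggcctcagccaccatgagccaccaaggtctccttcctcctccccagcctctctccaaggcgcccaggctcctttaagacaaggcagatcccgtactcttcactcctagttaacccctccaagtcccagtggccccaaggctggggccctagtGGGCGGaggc
Mertk chr2:128698665-128698914, plus strand: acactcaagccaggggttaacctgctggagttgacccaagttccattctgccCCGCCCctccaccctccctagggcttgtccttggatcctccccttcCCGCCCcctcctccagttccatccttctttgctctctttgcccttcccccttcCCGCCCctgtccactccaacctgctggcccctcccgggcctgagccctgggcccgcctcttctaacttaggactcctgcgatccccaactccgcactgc
Tyro3 chr2:119799416-119799513, plus strand: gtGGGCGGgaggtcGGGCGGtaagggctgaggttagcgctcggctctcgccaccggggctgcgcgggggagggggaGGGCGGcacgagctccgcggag
There was 1 GC box before *Axl*, 3 before *Mertk* and 3 in the stretch shown for *Tyro3*. On either strand, 32.7% of all 32851 windows of 250 bases held at least 1. The window of *Axl* was 60.0% G or C, that of *Mertk* 63.6% and that of *Tyro3* 73.2%, where the median window had 52.4%. The value of *Tyro3* covers all 250 bases, of which 128 lie in exons of GENCODE M21. None of the 3 windows held TATAAA or its reverse complement TTTATA, which 12.4% of all windows held. RefSeq windows were found for 8 of the 10 genes. These letters describe the sequence, and binding was not measured.

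The bridging ligands were led by *Gas6*. *Gas6* (ENSMUSG00000031451), on chromosome 8 from 13465374 to 13494490, encodes the ligand of all 3 TAM receptors, and it had the highest mean FPKM of the 10 genes, 113 ± 13.4 in control and 134 ± 20.5 in Mps1sKO testes (SD, n = 2 each). *Gas6* had 314 and 265 CPM in control and 307 and 380.3 CPM in Mps1sKO libraries. The groups overlapped, because Mps1sKO replicate 1 lay below control replicate 1. On the log2 scale *Gas6* differed by 0.25 (standard error 0.130, 95% interval −0.06 to 0.55, unadjusted p = 0.0954, adjusted p = 0.594 from edgeR). It ranged from 0.09 without Mps1sKO replicate 2 to 0.39 without Mps1sKO replicate 1.

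*Pros1* (ENSMUSG00000022912), on chromosome 16 from 62854307 to 62929346, encodes protein S, the ligand of TYRO3 and MERTK that is also an anticoagulant of plasma. It had 50.4 and 52.7 CPM in control and 54.9 and 55.6 CPM in Mps1sKO libraries. The groups did not overlap but lay close together, at a log2 difference of 0.10 (standard error 0.0901, 95% interval −0.11 to 0.31, adjusted p = 0.753 from edgeR). *Gas6* made up 89.9% ± 1.36 of the summed FPKM of these TAM ligands in control and 90.8% ± 1.18 in Mps1sKO testes (SD, n = 2 each), and these shares overlapped.

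*Mfge8* (ENSMUSG00000030605), on chromosome 7 from 79133768 to 79149060, encodes MFG-E8, which joins phosphatidylserine to integrins of the αv family. It had 98.2 and 108 CPM in control and 103 and 96.5 CPM in Mps1sKO libraries, and the groups overlapped. The log2 fold change was −0.05 (standard error 0.0949, 95% interval −0.27 to 0.17, adjusted p = 0.893 from edgeR), and it was 0.02 without control replicate 2. The interval allows a level from 0.828-fold to 1.12-fold of control.

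**Figure D2:**
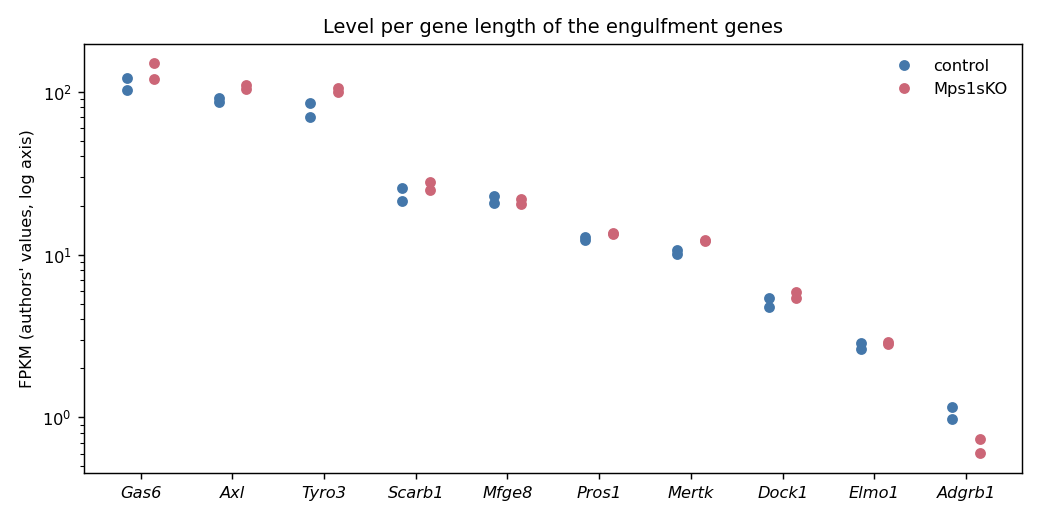
Level per gene length of the 10 genes (the authors' FPKM, log y axis), ordered on the x axis by their mean in control testes, with 1 point per library and colour for genotype. Levels ran from 113 FPKM for *Gas6* to 1.07 FPKM for *Adgrb1* in control testes.

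The direct phosphatidylserine receptors lay far apart in level, with means of 23.5 FPKM for *Scarb1* and 1.07 FPKM for *Adgrb1* in control testes. *Scarb1* (ENSMUSG00000037936), on chromosome 5 from 125277087 to 125341094, encodes SR-BI, which serves phagocytosis in Sertoli cells and takes up cholesterol from HDL in Leydig cells. It had 220.3 and 182 CPM in control and 213 and 238 CPM in Mps1sKO libraries. The groups overlapped, and the log2 fold change was 0.16 (standard error 0.117, 95% interval −0.11 to 0.44, adjusted p = 0.676 from edgeR). It ranged from 0.03 without control replicate 2 to 0.31 without control replicate 1.

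*Adgrb1* (ENSMUSG00000034730), on chromosome 15 from 74516195 to 74589465, encodes BAI1, an adhesion G protein-coupled receptor that recruits ELMO1. It had the fewest counts of the 10 genes, with 193 and 243 in control and 101 and 142 in Mps1sKO libraries. Scaled to library size, these are 7.17 and 8.43 CPM in control and 4.36 and 5.30 CPM in Mps1sKO testes, and the groups did not overlap. The exact Poisson 95% intervals, which cover counting error only, were 6.19 to 8.25 and 7.40 to 9.55 CPM in control and 3.55 to 5.30 and 4.46 to 6.25 CPM in Mps1sKO libraries. The interval of Mps1sKO replicate 2 thus touched that of control replicate 1.

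The log2 fold change of *Adgrb1* was −0.69 (standard error 0.184, 95% interval −1.12 to −0.26), with an unadjusted p of 0.00619 and an adjusted p of 0.494 from edgeR. Only *Adgrb1* among the 10 genes passed the study's cut-offs, 1.5 for the fold and 0.01 for the unadjusted p, at which 0.681% of all tested loci were lower with edgeR. With DESeq2 its unadjusted p was 0.0127, above that cut-off. The log2 fold change was −0.84 at its lowest and −0.56 at its highest over the 12 alternative settings, and the unadjusted p was below 0.05 in all of them. The FPKM ratio of *Mertk* to *Adgrb1* was 9.77 ± 1.45 in control and 18.4 ± 2.53 in Mps1sKO testes (SD, n = 2 each). It had to separate, since *Mertk* was higher and *Adgrb1* lower in both Mps1sKO libraries, and so adds no further result.

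The genes of the ELMO-DOCK module did not separate by genotype. *Elmo1* (ENSMUSG00000041112), on chromosome 13 from 20090596 to 20608353, encodes the adaptor that binds the tail of BAI1, and *Dock1* (ENSMUSG00000058325), on chromosome 7 from 134670654 to 135173639, encodes the exchange factor for RAC1. *Elmo1* had 33.2 and 36.1 CPM in control and 35.6 and 36.6 CPM in Mps1sKO libraries. *Dock1* had 50.6 and 45.0 CPM in control and 50.4 and 54.8 CPM in Mps1sKO libraries. Both genes overlapped between the genotypes. The log2 fold change of *Elmo1* was 0.06 (standard error 0.100, 95% interval −0.17 to 0.29) and that of *Dock1* was 0.14 (standard error 0.104, 95% interval −0.10 to 0.38), with adjusted p of 0.882 and 0.696 from edgeR. Per length, *Dock1* was at 1.87 ± 0.265 times *Elmo1* in control and 1.96 ± 0.0769 times in Mps1sKO testes (SD, n = 2 each).

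**Figure D3:**
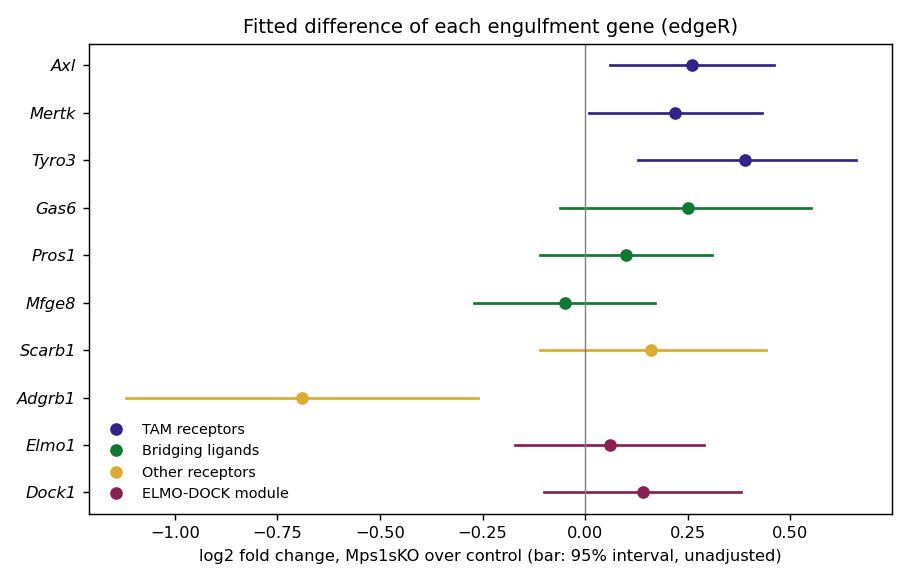
Log2 fold change of each gene (x axis, Mps1sKO over control, edgeR) with its unadjusted 95% interval as a bar, and colour for the role. The intervals of the 3 TAM receptors lay above 0 and that of *Adgrb1* below 0, while those of the other 6 genes included 0.

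In both genotypes the order of FPKM was *Gas6*, *Axl*, *Tyro3*, *Scarb1*, *Mfge8*, *Pros1*, *Mertk*, *Dock1*, *Elmo1* and *Adgrb1*. In control testes the libraries of *Scarb1* and *Mfge8* overlapped and those of the other neighbours did not. In Mps1sKO testes the only overlap of neighbours was that of *Axl* (110.1 and 104 FPKM) with *Tyro3* (99.4 and 106 FPKM). Among all tested loci, *Gas6*, *Axl* and *Tyro3* stood at percentiles 98.6, 98.1 and 97.7 of control FPKM, and *Adgrb1* at percentile 27.1. Exons of other genes covered at most 3.2% of the exon bases of any of the 10 genes, and the genes at these overlaps had at most 28 counts in a library.

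Since whole testes were sequenced, the levels were set beside marker genes of the cell types. The Sertoli cell markers *Sox9* and *Amh* were detected in every library, with 156 and 123 CPM of *Sox9* in control and 153 and 182 in Mps1sKO libraries, and 228 and 114 CPM of *Amh* in control and 207 and 337 in Mps1sKO libraries. For both genes control replicate 2 was the lowest library, as it was for *Tyro3*, *Axl*, *Mertk*, *Gas6*, *Scarb1* and *Dock1*. Of 17 tested Sertoli genes 15 were higher in Mps1sKO testes, against 50.1% of all tested loci, and the median log2 fold change was 0.33. Of the 17, 6 (35.3%) were higher with an unadjusted p from edgeR below 0.05, where 3.92% of all tested loci were higher at that threshold. The summed level of the Sertoli list was 8594 to 8789 CPM in control and 10584 to 10767 CPM in Mps1sKO libraries. A large part of this sum is *Clu*, with 2900.2 and 3586 CPM in control and 4399 and 3319 CPM in Mps1sKO libraries, which overlapped. *Gata4*, *Inhbb*, *Kitl* and *Ctsl* of this list are in a gene table that the study chose on these libraries, so for them the direction is not independent. All genes of the list were chosen with earlier results of these data known, so the direction of the others is not independent either. *Rhox5*, another Sertoli marker, had 1 count in 1 control library and none in the others.

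All 12 germ cell genes were lower in Mps1sKO testes, with a median of −0.41. For 10 of them the unadjusted p from edgeR was below 0.05, where 5.37% of all tested loci were lower at that threshold. *Stra8* and *Sycp3* of this list were picked by the study from its results on these libraries, so for them the direction is not independent. The whole list was chosen with earlier results of these data known, so the direction of its other genes is not independent either. The germ cell list summed to 1777 to 2031 CPM in control and 1319.7 to 1538 CPM in Mps1sKO libraries. *Ddx4* had 196 and 221 CPM in control and 175 and 139 in Mps1sKO libraries. The macrophage list summed to 178 to 185 CPM in control and 175 to 188 CPM in Mps1sKO libraries, with a median of −0.13 over 13 genes. Its markers *Adgre1* (6.39 to 7.69 CPM) and *Csf1r* (20.4 to 25.9 CPM) were detected in every library. Leydig genes summed to 672 to 785 CPM, peritubular genes to 853 to 981 CPM and endothelial genes to 124 to 139 CPM, and their median log2 fold changes were 0.18, −0.12 and 0.10 over 7, 5 and 5 genes. Their markers were detected in every library, with *Cyp17a1* at 117 to 173 CPM, *Acta2* at 525 to 593 CPM and *Pecam1* at 20.5 to 23.1 CPM. The part of these cell types in the differences of the engulfment genes was not tested.

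Scaled to the mean log2 level of the 17 Sertoli genes in the same library, the TAM receptors and *Gas6* were close to control. The log2 difference, given with no test, was −0.03 for *Axl*, −0.07 for *Mertk* and −0.04 for *Gas6*, and for each of these the libraries of the genotypes overlapped. *Tyro3* stayed above control in both Mps1sKO libraries, by 0.11, and by 0.07 against a shorter list without *Ctsl*, *Clu* and *Trf*, which other cells also express. Against the shorter list the groups barely separated, with control replicate 2 at 0.02 and Mps1sKO replicate 2 at 0.03. There 1.56% of all tested loci lay above control in both Mps1sKO libraries and 54.5% below it. The list of 17 Sertoli genes itself was higher by 0.29. On the scale of these 17 genes, 2.10% of all tested loci lay above control in both Mps1sKO libraries and 58.5% below it.

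On the same scale *Adgrb1* lay lower by 0.98, *Mfge8* by 0.34, *Elmo1* by 0.23, *Dock1* by 0.15 and *Scarb1* by 0.12, with no overlap. Against the shorter list, *Mfge8* and *Elmo1* overlapped between the genotypes. *Pros1* lay lower by 0.19 and overlapped. Scaled to the 12 germ cell genes, *Adgrb1* was the only gene of the 10 whose groups overlapped, with a difference of −0.24, and the other 9 lay above control by 0.40 to 0.85. The germ cell list itself differed by −0.45, and 71.7% of all tested loci lay above control on this scale. Scaled to the 13 macrophage genes, *Axl*, *Mertk* and *Tyro3* lay above control by 0.34, 0.30 and 0.48, *Adgrb1* lay below it, and *Mfge8* alone overlapped. The macrophage list itself differed by −0.08, and on this scale 31.0% of all tested loci lay above control and 13.3% below it.

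**Figure D4:**
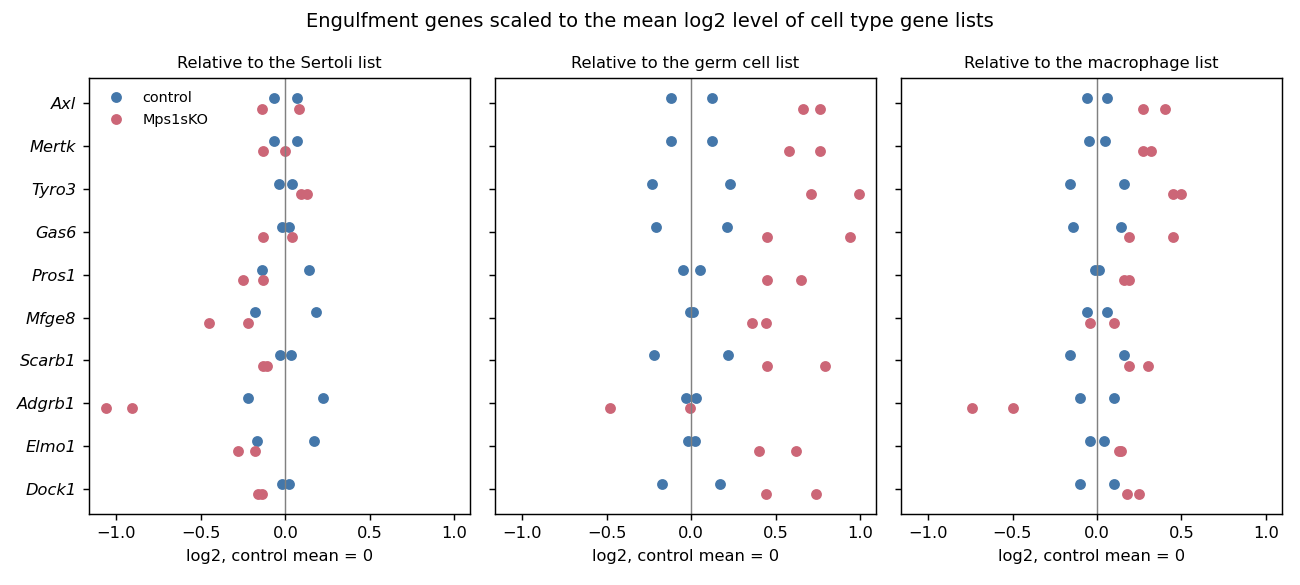
Log2 level of each gene (rows) minus the mean log2 level of a cell type list in the same library (x axis, control mean at 0), with 1 point per library and colour for genotype. Against the Sertoli list the points of *Axl*, *Mertk* and *Gas6* overlapped between the genotypes, and *Adgrb1* lay 0.98 lower in Mps1sKO testes.

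Another 57 genes of apoptotic cell clearance, from recognition to lipid efflux, were tested in the same fit, of which 55 passed the filter on low counts. By the fitted value 33 were higher and 22 lower, and their median was 0.04 on the log2 scale. An adjusted p below 0.05 was found for 0 of them with edgeR, DESeq2 or limma-voom, and 2 had an unadjusted p below 0.05 with edgeR, 2 with limma-voom and 0 with DESeq2. These 2 are 3.64% of the list, against 9.30% of all tested loci. Neither was below 0.05 with a block for the replicate number, and both kept their direction in all 12 alternative settings.

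The higher of them was *Rhog*, a GTPase that recruits ELMO to the membrane. It had 29.3 and 26.1 CPM in control and 33.9 and 33.0 CPM in Mps1sKO libraries, a log2 fold change of 0.27 (standard error 0.108, unadjusted p = 0.0367, adjusted p = 0.527 from edgeR). Leaving out 1 library gave a log2 fold change of *Rhog* between 0.19 and 0.36. The lower was *Havcr1*, which encodes the phosphatidylserine receptor TIM-1, with 29 and 34 counts in control and 18 and 13 in Mps1sKO libraries. Its log2 fold change was −0.85 (standard error 0.358, unadjusted p = 0.0468, adjusted p = 0.532 from edgeR), and it was −0.54 without Mps1sKO replicate 2.

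Grouped by role, the median log2 difference was 0.08 over 13 other genes listed under recognition and 0.06 over 13 genes of the RAC module. It was 0.12 over 9 genes of surface and find-me signals, −0.02 over 12 genes of phagosome digestion and −0.02 over 8 genes of lipid efflux. The most abundant gene of each role per length was *Itgb5*, an integrin subunit that pairs with αv, at 23.3 FPKM in control testes, *Cdc42*, a GTPase that regulates actin, at 146, *Calr*, an eat-me signal when exposed on the surface, at 185, *Lamp1*, a lysosomal membrane protein, at 113 and *Nr1h2*, the nuclear receptor LXRβ, at 34.7. Their log2 fold changes were 0.16, 0.04, 0.15, 0.05 and 0.07, and the 95% interval of each included 0. *Timd2* and *Cd300lf* did not pass the filter, with at most 2 and 10 counts in a library.

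**Figure D5:**
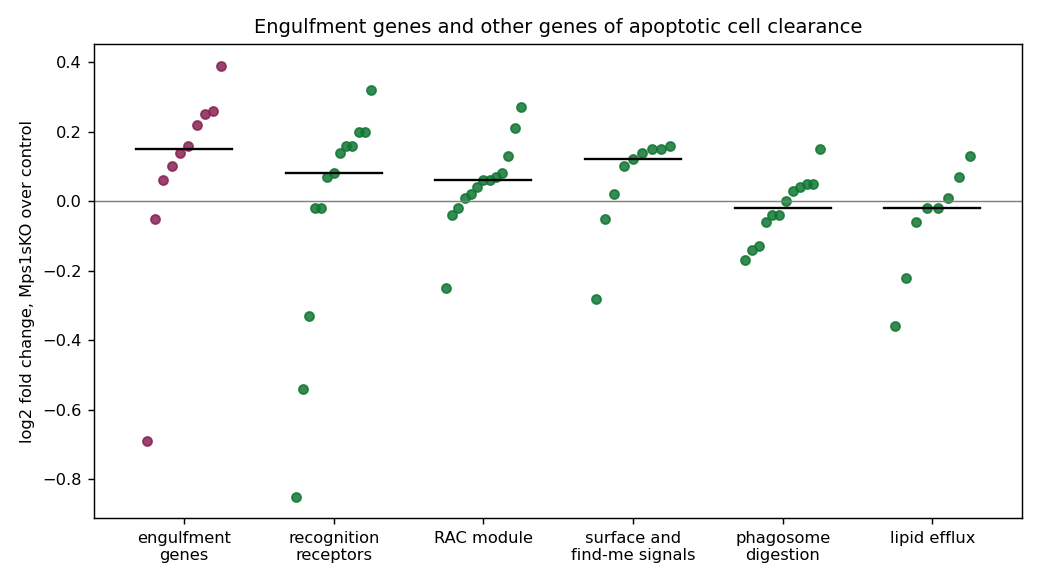
Log2 fold change (y axis, Mps1sKO over control, edgeR) of the 10 engulfment genes and of 55 other tested genes of apoptotic cell clearance, grouped by role on the x axis, with 1 point per gene and a line at the median. The medians ran from −0.02 to 0.15, with *Havcr1* at −0.85 the lowest point.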

How the data were processed

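The processed data are 1 table of the 4 libraries. Libraries were made with a NEBNext Ultra kit and sequenced in pairs on an Illumina NovaSeq, by the study's methods. The submitters' processing notes name HISAT2 2.0.5, featureCounts, DESeq2 1.16.1 and mm10. Strandedness is not given in the sources used here. The authors deposited raw counts per gene, FPKM values and the gene length in bases behind them. All 55536 annotated identifiers had the coordinates of GENCODE M21 on GRCm38, and 284 loci had none.

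The main test on the counts used edgeR 4.0.16 under R 4.3.3 (filterByExpr, TMM, two-sided quasi-likelihood test on genotype), and p was adjusted by Benjamini-Hochberg over 20561 loci. Standard errors are the log2 fold change over the root of F, and intervals use the t distribution of the fit. The common biological coefficient of variation was 0.106. The spread of each locus was moderated towards that of other loci, with a median of 5.64 prior degrees of freedom beside 2 residual ones. An exact permutation test of 2 libraries against 2 cannot give a p under 0.333. A floor of 3 counts is 0.104 to 0.129 CPM per library. FPKM served to compare levels between genes and to give sums, shares and ratios of genes in each genotype, with no test. Tables and figures used Python 3.11.15 and pandas 2.3.3.

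The alternatives were DESeq2 1.42.0, other scalings and filters, limma-voom (limma 3.58.1), a robust fit of the dispersion, a block for the replicate number, and leaving out each library. The scripts were tested on simulated counts. The 10 genes and all lists (Sertoli, germ cell, macrophage, Leydig, peritubular, endothelial and the 57 further clearance genes) were chosen with earlier results of these data known. Named genes are the 10, *Ttk*, fixed markers and, of the 57, the most abundant per role and those with an unadjusted p below 0.05 and no overlap. Genes named for being chosen by the study, for failing the filter or for their part in a summed level were added after their values were seen.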

Additional observations from a re-analysis of the deposited data

How the results depend on the processing

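Precision is limited by 2 libraries per genotype. No library pairing is given in the labels. The deviations of the libraries numbered 1 from their group means correlated at −0.238 over 20561 loci. The negative sign means that libraries with unlike numbers tended to deviate alike. This value does not show whether the libraries were paired, and the source of the shared deviation was not tested. Without the filter on low counts, 1 of the 10 genes (*Tyro3*) had an adjusted p below 0.05, and 0 had under the other alternatives, including each library left out in turn (0 to 0). At an unadjusted p below 0.05, the replicate block left 2 of the 10 genes in place of 4 (*Tyro3* and *Adgrb1*), where the share of all loci was 5.05% in place of 9.30%. Leaving out 1 library gave log2 fold changes of 0.22 to 0.30 for *Axl*, 0.19 to 0.26 for *Mertk* and 0.25 to 0.55 for *Tyro3*. The ranges were 0.09 to 0.39 for *Gas6* and −0.84 to −0.56 for *Adgrb1*. Of the 57 further genes, 2 were below 0.05, against 0 with DESeq2, 0 with the replicate block, 5 without the filter and 0 to 5 with a library left out. With a library left out, 1 group has 1 library, which is assumed to vary like the others. *Ttk* no longer passed 0.05 with at least 10 counts in every library (log2 fold change −1.27), with limma-voom (−1.26) and with the replicate block (−1.26), and lay between −1.37 and −1.15 with a library left out. Of the 10 genes, *Mfge8* (−0.12 to 0.02 with a library left out) reversed without control replicate 2 and *Elmo1* (−0.0026 to 0.12) without control replicate 1, and the other 8 kept their direction in all 12 alternatives. The cause was not tested. Over all loci, 6 had an adjusted p below 0.05, against 390 without the filter, 34 with DESeq2, 3 with limma-voom, 3 with at least 10 counts, 2 with the replicate block and 8 to 111 with a library left out. Using library size only moved the median of all loci by −0.021.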
